A study of Mus musculus with 8 samples.

Results

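The genes that drive and brake the G1 phase of the cell cycle were followed in macrophages with and without Gasdermin D (Gsdmd). The 10 genes were taken from the table of gene counts by their symbols: the D cyclins Ccnd1, Ccnd2 and Ccnd3, their kinases Cdk4 and Cdk6, and the kinase inhibitors Cdkn1a, Cdkn1b, Cdkn2a, Cdkn2b and Cdkn2c. They are 10 of 54532 genes in the table, and 8 of them are among the 12911 genes with enough counts for the test between genotypes; Cdkn2a and Cdkn2b are not. Bone marrow-derived macrophages (BMDMs) are grown from bone marrow cells in macrophage colony-stimulating factor (M-CSF). The study sequenced RNA of untreated BMDMs from WT and Gsdmd-/- mice as part of its work on how Gsdmd bears on macrophage polarization in asthma, with 4 libraries per genotype. Cells of both genotypes were cultured for 6 days with 20 ng/ml M-CSF. The WT mice were bought female C57BL/6J animals aged 6 to 8 weeks. The Gsdmd-/- mice carry a germline knockout, came from another laboratory and were kept in the university's own facility, so genotype and colony of origin cannot be told apart. The sources do not state if the libraries of a genotype were made from different mice, and the p-values therefore measure the spread between these libraries, which may be technical.

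D cyclins are made when a cell receives a growth signal, which for macrophages is M-CSF, and they bind CDK4 or CDK6. The active kinases phosphorylate the retinoblastoma protein, which then releases E2F transcription factors that switch on the genes for DNA replication. Inhibitors of the CIP/KIP family (Cdkn1a and Cdkn1b here) bind complexes of cyclin and kinase, whereas those of the INK4 family (Cdkn2a, Cdkn2b and Cdkn2c here) bind CDK4 and CDK6 and keep the cyclin away.

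Libraries held between 14935114 and 16794810 counts. Levels are given in CPM, the counts brought to a common library size with the trimmed mean of M-values (TMM), and a count of 0 allows up to 3 counts, or 0.177 to 0.199 CPM, by counting error alone. Gsdmd (ENSMUSG00000022575) matched the labels, with 75.3 ± 14.1 CPM in WT and 16.2 ± 1.56 CPM in Gsdmd-/- BMDMs (SD, n = 4 each). WT 2 and WT 3 stood apart from the other 6 libraries, with scores of 45.4 and 38.8 on the first principal component against -25.9 to -7.19, so the fold changes of the members tested and of most other genes compared are also given without them. Macrophage markers (8 of 8 listed genes tested, 0 with an adjusted p under 0.05) summed to between 15340 and 23464 CPM in WT and between 19408 and 23404 CPM in Gsdmd-/- BMDMs, and were lowest in WT 2 and WT 3. Most of this sum was Lyz2 (between 12999 and 20757 CPM), while Adgre1 (319 and 326 CPM) and Mertk (250 and 212 CPM) were highest in those libraries. Summed markers of mast cells and basophils were between 10.5 and 71.8 CPM in WT and between 46.3 and 67.8 CPM in Gsdmd-/- BMDMs, and those of endothelial cells between 29.6 and 69.6 CPM and between 49.2 and 81.3 CPM. Both were again lowest in WT 2 and WT 3, and most of their counts came from Kit and Kdr, whereas the endothelial markers Tie1 (1.89 and 1.83 CPM) and Pecam1 (0.550 and 0.855 CPM) were highest there. The lists for neutrophils, stromal cells, lymphocytes, dendritic cells, erythroid cells and megakaryocytes summed to at most 6.68 CPM in any library, and Ly6g, Lum, Hba-a1, Hbb-bs and Gp1bb had 0 counts in all 8. The part of these differences between libraries in the results below was not tested. In bulk RNA, fewer cells of a type and less RNA per cell cannot be told apart.

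When counts were divided by the annotated exon length of each gene, the inhibitor Cdkn1a was the most abundant of the 10 genes in both genotypes. It had 82.9 ± 19.8 CPM per kb in WT and 92.8 ± 6.57 CPM per kb in Gsdmd-/- BMDMs (SD, n = 4 each). Cdk4 was next, with 29.8 ± 5.68 and 36.7 ± 1.38 CPM per kb. These ranks did not depend on the library: Cdkn1a was above Cdk4, and Cdk4 above Ccnd1, in 4 of 4 libraries of each genotype, with ranges that did not overlap. Below them the WT order of mean levels per kb was Ccnd1, Cdk6, Ccnd3, Cdkn1b, Ccnd2, Cdkn2c, Cdkn2a and Cdkn2b, and of the 9 pairs of neighbours in the whole order 6 had overlapping ranges. In Gsdmd-/- BMDMs only 3 of the 9 pairs overlapped, namely Ccnd1 and Cdk6, Ccnd3 and Cdkn1b, and the lowest pair, Cdkn2b and Cdkn2a. The order was otherwise the same, but Ccnd2 and Cdkn2c changed places, as did Cdkn2a and Cdkn2b. Ccnd2 had 2.52 ± 0.476 CPM per kb and Cdkn2c 1.59 ± 0.285 CPM per kb in WT, and Ccnd2 was the higher in 4 of 4 libraries although the ranges overlapped. In Gsdmd-/- BMDMs Ccnd2 had 1.38 ± 0.212 CPM per kb and Cdkn2c 2.08 ± 0.160 CPM per kb, and Cdkn2c was the higher in 4 of 4 libraries. Exon lengths join all annotated transcripts of a gene, so such levels are coarse for genes with many transcripts.

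**Figure D1:**
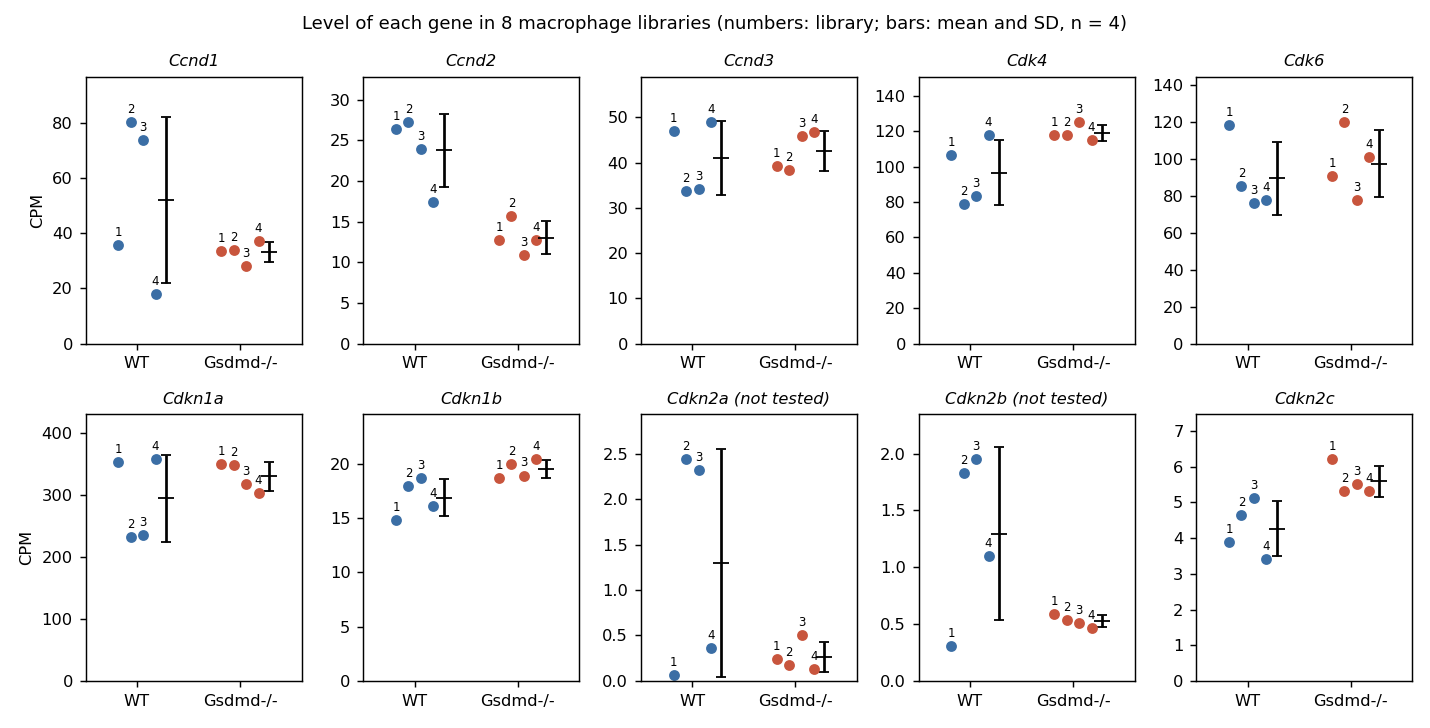
Level in CPM (linear axes from 0) of the 10 genes, 1 panel each, in the WT and Gsdmd-/- libraries, with 1 numbered point per library and bars for the mean and SD (n = 4). Ccnd2 lies lower in all 4 Gsdmd-/- libraries (10.9 to 15.7 CPM) than in any WT library (17.4 to 27.3 CPM), and Cdkn2c lies higher (5.31 to 6.22 against 3.41 to 5.13 CPM). Relative to their means, Ccnd1, Cdkn2a and Cdkn2b spread most within WT.

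No member passed an adjusted p under 0.05 between the genotypes in edgeR's quasi-likelihood test (two-sided, Benjamini-Hochberg over all genes tested), a rule met by 45 of 12911 genes (0.349%). An unadjusted p under 0.05 was found for 3 of the 8 members tested, Ccnd2, Cdkn2c and Cdk4, against 12.0% of all genes tested. The members and the gene lists compared below were chosen with earlier results of these data known, so such shares are a description only. DESeq2 gave 1 member, Ccnd2, with an adjusted p under 0.05, against 2.26% of genes. A looser rule, an unadjusted p under 0.05 with a log2 fold change of 0.5 or more in either direction, was met by 1 member in the lower direction, Ccnd2, against 3.28% of all genes tested, and by 0 in the higher direction, against 1.54%. When WT 2 and WT 3 were left out it was met by Ccnd2 in the lower direction, against 3.15%, and by Cdkn2c in the higher, against 3.05%. The values of the genotypes did not overlap for 1 member that was lower in Gsdmd-/-, Ccnd2 (4.12% of genes tested), and for 1 that was higher, Cdkn2c (3.48%). With counts scaled by library totals alone this held for 1 lower member, Ccnd2 (3.76% of genes tested), and for 3 higher ones, Cdk4, Cdkn1b and Cdkn2c (3.66%). The log2 fold change was above 0 for 6 of the 8 and below 0 for Ccnd1 and Ccnd2, with a median of 0.14, while the median of all genes tested was -0.0068. Without WT 2 and WT 3 it was above 0 for 4 of the 8, with a median of 0.034.

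Of the D cyclins, Ccnd2 differed most between the genotypes. Ccnd2 (ENSMUSG00000000184, chr6:127125162-127152193, minus strand, GRCm38), a cyclin that mitogens induce in many blood cells, had 26.4, 27.3, 23.9 and 17.4 CPM in WT 1 to 4. In Gsdmd-/- 1 to 4 it had 12.7, 15.7, 10.9 and 12.7 CPM. Each Gsdmd-/- library was thus below each WT library, and WT 4 was the WT library nearest to them. The means were 23.8 ± 4.47 CPM and 13.0 ± 2.0 CPM (SD, n = 4 each), a ratio of 0.549, and the log2 fold change was -0.87 (SE 0.162). The difference missed the threshold over all genes (edgeR adjusted p = 0.0681, unadjusted p = 3.06e-04), and the exact permutation test of the CPM on the log2 scale (two-sided) gave p = 0.0286, the smallest that 4 against 4 libraries allow. The call moved with the analysis: the adjusted p was 3.98e-04 in DESeq2, 0.0124 in edgeR without the filter on low counts and 0.0128 without WT 4, and up to 0.266 without Gsdmd-/- 1. In all 16 alternatives Ccnd2 was lower in Gsdmd-/-, with log2 fold changes between -0.99 and -0.75. Without WT 2 and WT 3 it was -0.75 (SE 0.190, adjusted p = 0.111). A pair of antisense genes that overlap exons of Ccnd2 had 18 and 0 counts over all libraries.

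Ccnd1 was the D cyclin that varied most within WT. Ccnd1 (ENSMUSG00000070348, chr7:144929931-144939925, minus strand), the D cyclin that growth factors induce in most cell types, had 35.7, 80.5, 73.8 and 18.0 CPM in WT 1 to 4 and 33.6, 33.9, 28.2 and 37.1 CPM in Gsdmd-/- 1 to 4. WT 2 and WT 3 were high and WT 4 was low, and the Gsdmd-/- libraries lay between them, so the groups overlapped. The coefficient of variation was 57.8% in WT and 11.1% in Gsdmd-/- BMDMs. The means of 52.0 ± 30.1 and 33.2 ± 3.70 CPM (SD, n = 4 each) gave a log2 fold change of -0.65 (SE 0.376, edgeR adjusted p = 0.545), a difference within the spread of the libraries. The direction turned without WT 2 and WT 3, to a log2 fold change of 0.30 (SE 0.234, adjusted p = 0.682). Single libraries also moved it, from -0.36 without WT 2 (adjusted p = 0.873) to -0.93 without WT 4 (adjusted p = 0.0893), where Ccnd1 met the looser rule. The gene shares 1100 exon bases, 23.4% of its exon length, with Oraov1 on the opposite strand, and as the sources do not say whether reads were counted by strand, reads from the shared bases may have been split or lost between them. Oraov1 had 19.0, 38.1, 41.7 and 21.4 CPM in WT 1 to 4 and 13.4 to 17.1 CPM in Gsdmd-/- BMDMs. It too was highest in WT 2 and WT 3, each of its Gsdmd-/- values was below each WT value, and its log2 fold change was -1.0 (SE 0.243, edgeR adjusted p = 0.139), and -0.43 (adjusted p = 0.159) without WT 2 and WT 3.

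Ccnd3 (ENSMUSG00000034165, chr17:47505051-47599691, plus strand), a D cyclin found in many mature blood cells, had 46.9, 33.7, 34.1 and 49.1 CPM in WT 1 to 4 and 39.2, 38.3, 45.9 and 46.8 CPM in Gsdmd-/- 1 to 4. Here WT 2 and WT 3 were the lowest of the 8 libraries, and WT 1 and WT 4 the highest. The groups overlapped, with means of 40.9 ± 8.15 and 42.6 ± 4.41 CPM (SD, n = 4 each) and a log2 fold change of 0.06 (SE 0.142, edgeR adjusted p = 0.911). It was -0.18 (SE 0.112) without WT 2 and WT 3. Bysl on the opposite strand shares 4.11% of its exon length, with its own log2 fold change at -0.20 (adjusted p = 0.658), and at -0.44 (adjusted p = 0.0844) without that pair.

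Because the D cyclins share their kinases, their levels per kb were also set against their sum in each library. Ccnd1 made up 48.2%, 71.7%, 70.9% and 34.0% of the sum in WT 1 to 4, and between 48.4% and 55.1% in the Gsdmd-/- libraries. Ccnd3 was the larger share only in WT 4, with 49.6%, and had 33.9%, 16.1% and 17.6% in WT 1 to 3 and between 33.0% and 42.2% in Gsdmd-/- BMDMs. Ccnd2 made up between 11.5% and 17.8% in WT and between 9.28% and 12.6% in Gsdmd-/- BMDMs. Ccnd1 thus made up most of the sum in WT 2 and WT 3 and less than Ccnd3 in WT 4, while the Gsdmd-/- libraries had similar shares. The sum itself was 15.7, 23.8, 22.1 and 11.3 CPM per kb in WT 1 to 4 and between 12.4 and 14.6 CPM per kb in Gsdmd-/- BMDMs, so these overlapped.

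**Figure D2:**
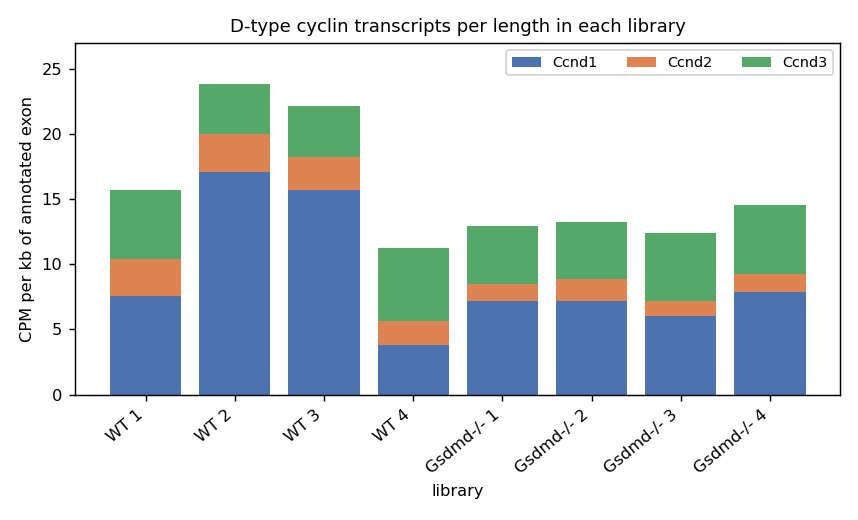
Level of the D cyclins in CPM per kb of annotated exon, stacked in 1 bar per library, with a colour for each cyclin. The bars of WT 2 and WT 3 are the tallest (23.8 and 22.1 CPM per kb) with Ccnd1 as 71.7% and 70.9% of their height, that of WT 4 is the lowest (11.3), and the Gsdmd-/- bars range from 12.4 to 14.6.

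Cdk4 (ENSMUSG00000006728, chr10:127063534-127067920, plus strand), the kinase partner of the D cyclins with the higher level per kb here, had 106.5, 79.1, 83.5 and 117.7 CPM in WT 1 to 4. In Gsdmd-/- 1 to 4 it had 118.2, 117.9, 125.5 and 115.0 CPM. The groups overlapped only through WT 4, which was above Gsdmd-/- 4, and WT 2 and WT 3 were the lowest libraries. The means were 96.7 ± 18.5 and 119 ± 4.47 CPM (SD, n = 4 each), and the log2 fold change of 0.30 (SE 0.125) did not pass over all genes (edgeR adjusted p = 0.378, unadjusted p = 0.0364; exact permutation p = 0.0571). The log2 fold change was 0.09 (SE 0.0905, adjusted p = 0.789) without WT 2 and WT 3. Cdk4 shares 641 exon bases, 19.7% of its exon length, with Tspan31 on the opposite strand, whose own log2 fold change was -0.02 (adjusted p = 0.967), and 0.12 without WT 2 and WT 3.

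Cdk6 (ENSMUSG00000040274, chr5:3341485-3531008, plus strand), the second kinase of the D cyclins, had 118.6, 85.3, 76.2 and 77.9 CPM in WT 1 to 4 and 90.6, 120.2, 77.6 and 101.2 CPM in Gsdmd-/- 1 to 4. High and low libraries were found in both groups, which overlapped nearly throughout. The means of 89.5 ± 19.8 and 97.4 ± 18.0 CPM (SD, n = 4 each) gave a log2 fold change of 0.12 (SE 0.167, edgeR adjusted p = 0.816), and without WT 2 and WT 3 it was -0.02. Per kb, Cdk4 made up between 79.5% and 86.7% of both kinases together in WT and between 80.9% and 87.4% in Gsdmd-/- BMDMs. The sum of the kinases was 41.3, 30.4, 31.1 and 41.8 CPM per kb in WT 1 to 4 and 42.6 to 44.9 CPM per kb in Gsdmd-/- BMDMs, so that it was lower in WT 2 and WT 3 than in the other 6 libraries.

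Cdkn1a (ENSMUSG00000023067, chr17:29090976-29100727, plus strand), the inhibitor induced by the tumour suppressor p53, had 352.8, 232.7, 234.8 and 358.1 CPM in WT 1 to 4 and 350.2, 348.4, 317.3 and 303.0 CPM in Gsdmd-/- 1 to 4. The lowest libraries were again WT 2 and WT 3, and the highest WT 1 and WT 4. The means were 295 ± 70.3 and 330 ± 23.4 CPM (SD, n = 4 each), and the log2 fold change of 0.16 (SE 0.154, edgeR adjusted p = 0.727) became -0.11 (SE 0.0950) without WT 2 and WT 3. Among the 5 inhibitors Cdkn1a made up between 87.5% and 95.2% of the summed level per kb in WT and between 92.5% and 93.4% in Gsdmd-/- BMDMs.

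Cdkn1b (ENSMUSG00000003031, chr6:134920401-134925513, plus strand), an inhibitor that holds many cells in quiescence, had 14.9, 17.9, 18.7 and 16.1 CPM in WT 1 to 4 and 18.7, 19.9, 18.9 and 20.4 CPM in Gsdmd-/- 1 to 4. The groups overlapped by a single pair, WT 3 and Gsdmd-/- 1, whose values were nearly equal. With means of 16.9 ± 1.74 and 19.5 ± 0.840 CPM (SD, n = 4 each), the log2 fold change was 0.21 (SE 0.104, edgeR adjusted p = 0.481; exact permutation p = 0.0571). It was 0.33 without WT 2 and WT 3.

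Cdkn2c (ENSMUSG00000028551, chr4:109660876-109667189, minus strand) had the most counts of the 3 INK4 members. It had 3.90, 4.64, 5.13 and 3.41 CPM in WT 1 to 4 and 6.22, 5.32, 5.52 and 5.31 CPM in Gsdmd-/- 1 to 4. Every Gsdmd-/- library was above every WT library, with WT 3 the nearest to them. The means were 4.27 ± 0.767 and 5.59 ± 0.429 CPM (SD, n = 4 each), and the log2 fold change of 0.39 (SE 0.168) did not pass over all genes (edgeR adjusted p = 0.393, unadjusted p = 0.0422; exact permutation p = 0.0286, the smallest possible). It was 0.61 (SE 0.175, adjusted p = 0.154) when WT 2 and WT 3 were left out.

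The neighbouring genes Cdkn2a and Cdkn2b, whose inhibitors accumulate in ageing and stressed cells, were at the lower end of detection. Cdkn2a (ENSMUSG00000044303, chr4:89274471-89294653, minus strand) has a pair of starts, with products known as INK4A, which binds CDK4 and CDK6, and ARF, which acts on p53 through Mdm2. Cdkn2b (ENSMUSG00000073802, chr4:89306299-89311039, minus strand) lies next to it. The bases before these starts are shown because the counts of both genes were highest in the same WT libraries while the table gives 1 count per gene, which cannot separate the starts of Cdkn2a. The sequences are from RefSeq (GRCm38.p6), whose table of promoters held 8 of the 10 members but not Ccnd1 and Ccnd2. They run 5′ to 3′ on the minus strand up to the first annotated exon base, and capitals mark the GC box GGGCGG, searched on both strands.
Cdkn2a, first start (chr4:89294654-89294869): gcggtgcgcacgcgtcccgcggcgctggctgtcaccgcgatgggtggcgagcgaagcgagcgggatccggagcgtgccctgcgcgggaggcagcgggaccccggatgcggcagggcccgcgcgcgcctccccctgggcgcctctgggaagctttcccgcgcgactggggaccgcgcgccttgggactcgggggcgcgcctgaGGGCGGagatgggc
Cdkn2a, second start (chr4:89282193-89282442): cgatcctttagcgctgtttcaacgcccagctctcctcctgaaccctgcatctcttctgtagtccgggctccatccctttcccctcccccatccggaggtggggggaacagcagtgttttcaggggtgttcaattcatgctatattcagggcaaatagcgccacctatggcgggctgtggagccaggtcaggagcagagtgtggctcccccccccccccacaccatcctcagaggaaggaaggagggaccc
Cdkn2b (chr4:89311040-89311282): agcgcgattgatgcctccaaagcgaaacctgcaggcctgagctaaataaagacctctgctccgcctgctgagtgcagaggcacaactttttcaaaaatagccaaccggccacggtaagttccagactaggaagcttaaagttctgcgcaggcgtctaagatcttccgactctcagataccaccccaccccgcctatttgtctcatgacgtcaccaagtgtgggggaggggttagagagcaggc

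The first window was 78.7% G and C with 35 CpG and 1 GC box, the second 60% with 7 CpG and no GC box, and that of Cdkn2b 53.5% with 11 CpG and no GC box. GGGCGG was present in 32.7% of 32817 promoter windows of 250 bases. The E2F letters TTTCGCGC or TTTGGCGC, which 0.655% of those windows held on either strand, were in none of the 8 members' windows, and TATAAA, held by 12.4%, was only in that of Cdk6.

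Cdkn2a had 1, 40, 38 and 6 counts in WT 1 to 4 and 4, 3, 8 and 2 counts in Gsdmd-/- 1 to 4. Nearly all of its WT counts were thus in WT 2 and WT 3, and the other libraries were near the limit of detection in both genotypes. In CPM these were 0.0609, 2.44, 2.32 and 0.365 in WT and between 0.133 and 0.507 in Gsdmd-/- BMDMs. Cdkn2b had 5, 30, 32 and 18 counts in WT 1 to 4 and 10, 9, 8 and 7 counts in Gsdmd-/- 1 to 4. The highest were again WT 2 and WT 3, WT 4 was also above the Gsdmd-/- libraries, and WT 1 was the lowest of all 8. Neither gene had enough counts for the test with all 8 libraries. In a fit without the filter the log2 fold changes were -2.24 for Cdkn2a (SE 0.721, edgeR adjusted p = 0.290) and -1.27 for Cdkn2b (SE 0.466, adjusted p = 0.394), and the genotypes overlapped for both. In 5 fits that left out 1 library Cdkn2b passed the filter on low counts through its WT libraries, which builds in a lower Gsdmd-/- value, so nothing is read from them.

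The members thus fell into sets by their level in WT 2 and WT 3 relative to WT 1 and WT 4. The ratio of the mean CPM of the former pair to that of the latter was 11.2 for Cdkn2a, 2.87 for Ccnd1, 2.71 for Cdkn2b, 1.34 for Cdkn2c, 1.18 for Cdkn1b and 1.17 for Ccnd2. It was 0.822 for Cdk6, 0.725 for Cdk4, 0.708 for Ccnd3 and 0.658 for Cdkn1a. Ccnd1, Cdkn2a and Cdkn2b were thus high where Cdk4, Ccnd3 and Cdkn1a were low. These pairs were set apart by the first principal component of the same libraries, so the ratios are a description and were not tested. Ccnd2 differed little between the pairs, and its log2 fold change between the genotypes was -0.87 with and -0.75 without WT 2 and WT 3.

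**Figure D3:**
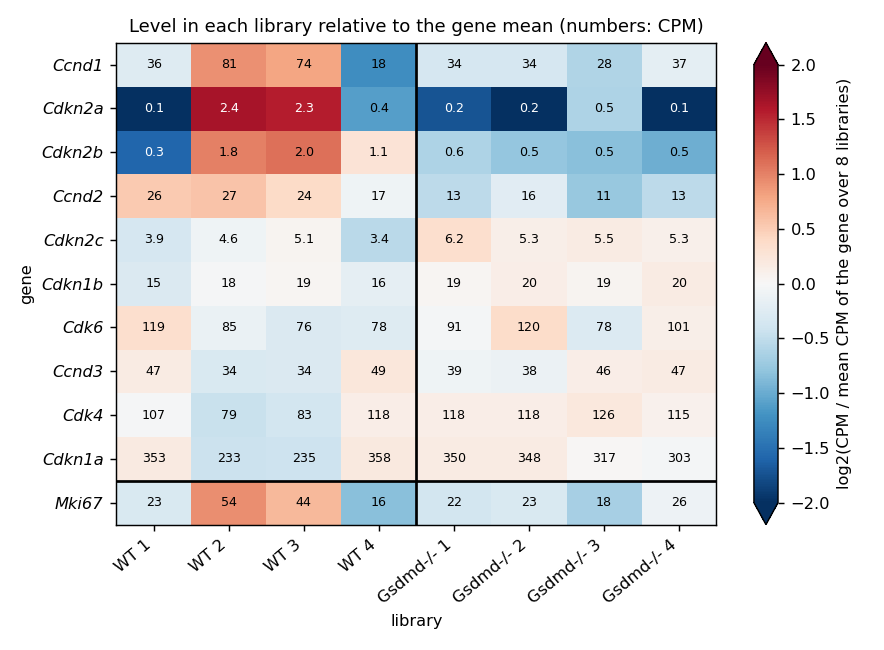
Level of each member and of Mki67, a marker of proliferating cells (rows), in each library (columns), as colour for the log2 ratio of its CPM to the gene's mean over 8 libraries, with colours ending at -2 and 2 and the CPM written in each cell. WT 2 and WT 3 share a pattern in which Cdkn2a, Cdkn2b and Ccnd1 are above and Cdk4, Ccnd3 and Cdkn1a below the mean, and Ccnd2 is below the mean in all 4 Gsdmd-/- libraries and, by less, in WT 4.

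**Figure D4:**
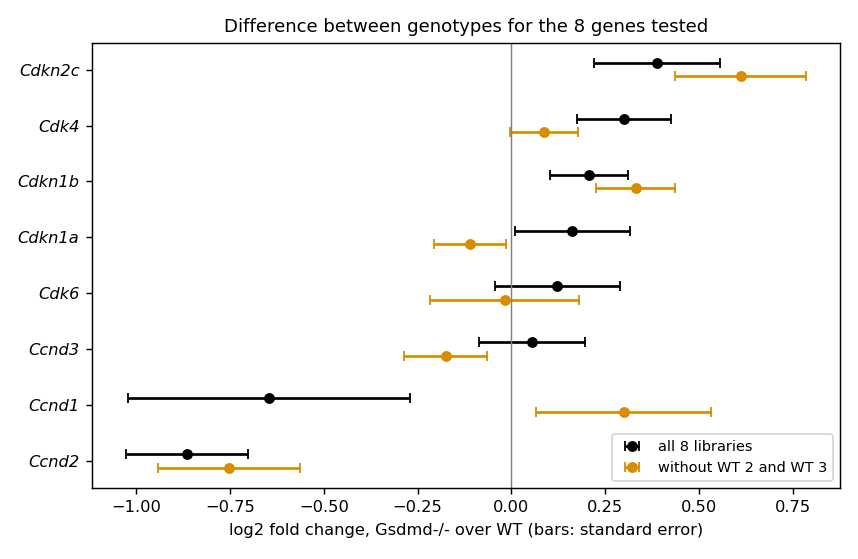
Log2 fold change, Gsdmd-/- over WT, of the 8 members tested, with bars of 1 SE, from all 8 libraries and without WT 2 and WT 3. Ccnd2 (-0.87 and -0.75) and Cdkn2c (0.39 and 0.61) keep their sides of 0, while Ccnd1, Ccnd3, Cdk6 and Cdkn1a change sides.

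Other genes of G1 and of the entry into S phase, the pathway in which the members act, were read from the same fit. Of 36 genes of the G1/S machinery (E-type cyclins, Cdk2, the retinoblastoma family, E2F factors and the factors that degrade cyclins and inhibitors), all were tested, 18 lay above and 18 below 0, the median log2 fold change was 0.0011, and 0 passed an adjusted p under 0.05. An unadjusted p under 0.05 was found for 3 of the 36 in edgeR (8.33%), against 12.0% of all genes tested. These were E2f4, an E2F factor that mostly represses in quiescent cells (log2 fold change -0.22, SE 0.0789, adjusted p = 0.310), Fzr1, an activator of the anaphase-promoting complex in G1 (-0.29, SE 0.103, adjusted p = 0.318), and Cdkn2d, the remaining INK4 inhibitor (0.40, SE 0.150, adjusted p = 0.337). Without WT 2 and WT 3 the log2 fold changes were -0.27 for E2f4, -0.21 for Fzr1 and 0.45 for Cdkn2d. Cdkn2d, named here for its low p, and Cdkn2c thus both had log2 fold changes above 0 in each of these fits. The other INK4 genes, Cdkn2a and Cdkn2b, with few counts, had -2.24 and -1.27 in the fit without the filter. By the looser rule 0 of 36 were called, and 2 without WT 2 and WT 3, Ccne2 and Cdkn1c, both higher in Gsdmd-/- BMDMs, against 3.05% of genes in that fit. The mean CPM of WT 2 and WT 3 was 1.89 and 2.54 times that of WT 1 and WT 4 for these genes. Leaving out the higher pair builds in a lower WT level, so nothing is read from these calls.

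The genes that act after G1, 24 genes of DNA replication and mitosis, depended on WT 2 and WT 3. With all 8 libraries 15 were above and 9 below 0, with a median log2 fold change of 0.06, and 0 passed an adjusted p under 0.05. An unadjusted p under 0.05 in edgeR was found for 1 (4.17%, against 12.0% of all genes tested), and 0 met the looser rule. The lowest unadjusted p values were those of Cdt1, which licenses replication origins (log2 fold change 0.22, SE 0.0978, edgeR adjusted p = 0.410), the helicase subunit Mcm6 (0.20, SE 0.0959, adjusted p = 0.444) and the proliferation marker Mki67 (-0.62, SE 0.329, adjusted p = 0.503). Mki67 had 22.9, 54.0, 44.4 and 15.8 CPM in WT 1 to 4 and 21.9, 23.0, 17.8 and 26.3 CPM in Gsdmd-/- 1 to 4, so that WT 2 and WT 3 were high and WT 4 low, as for Ccnd1. The summed CPM of the 24 genes was 570, 727, 765 and 587 in WT 1 to 4 and between 615 and 741 in Gsdmd-/- BMDMs. WT 3 lay above the Gsdmd-/- range, WT 2 within it, and WT 1 and WT 4 below it. When WT 2 and WT 3 were left out, 24 of 24 genes were above 0, with a median log2 fold change of 0.32 (0.08 for Cdt1, 0.31 for Mcm6 and 0.20 for Mki67). By the looser rule 8 were called, all higher in Gsdmd-/- BMDMs (Birc5, Bub1, Ccnb1, Ccnb2, Cdc20, Kif11, Plk1 and Rrm2), against 3.05% of the 13288 genes tested in that fit. It kept only WT 1 and WT 4, whose sums were below every Gsdmd-/- library. Higher Gsdmd-/- values are thus built in, and nothing is read from them. Leaving out WT 1 or WT 4 alone gave 8 and 10 of 24 above 0 (medians -0.036 and -0.022). Leaving out WT 2 or WT 3 alone gave 21 of 24 each (medians 0.10 and 0.15).

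Targets of p53, the factor that induces Cdkn1a, had a median log2 fold change of 0.07 over 19 genes, all tested, of which 12 were above and 7 below 0. The list holds Cdkn1a itself, and Mdm2, which is also among the genes of the G1/S machinery. None of the 19 passed an adjusted p under 0.05 in edgeR, and DESeq2 gave 2, Btg2 and Aen, against 2.26% of genes. An unadjusted p under 0.05 in edgeR was found for 5 (26.3%, against 12.0% of all genes tested), of which 1 was higher and 4 were lower in Gsdmd-/- BMDMs. By the looser rule 1 was higher (Btg2, against 1.54% of all genes tested) and 1 lower (Eda2r, against 3.28%). Btg2, which restrains proliferation, had 18.7, 21.7, 24.7 and 20.9 CPM in WT 1 to 4 and 32.3, 31.6, 29.9 and 28.4 CPM in Gsdmd-/- 1 to 4. The groups did not overlap, and the log2 fold change was 0.51 (SE 0.104, edgeR adjusted p = 0.0889). Without WT 2 and WT 3 Btg2 rose by 0.62 on the log2 scale (adjusted p = 0.0278). The death receptor Eda2r (-0.56, SE 0.250, adjusted p = 0.408) and the nuclease Aen (-0.38, SE 0.102, adjusted p = 0.179) had log2 fold changes of the other sign, which were -0.50 and -0.48 without WT 2 and WT 3.

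The genes whose pattern was most like that of Ccnd2 were sought by Pearson's r of log2 CPM over the 8 libraries, among genes tested with a mean of at least 1 CPM. The 5 highest were Tnfrsf1b, a receptor for tumour necrosis factor (r = 0.984), the transcriptional repressor Bcl6 (r = 0.981), Numb, an inhibitor of Notch receptors (r = 0.981), the transcription factor Nfix (r = 0.978) and the elongation factor Ell2 (r = 0.975). The libraries share their depth and composition, and these were picked as the highest of all such genes, so the values are a description. The log2 fold change was -1.01 for Bcl6 (edgeR adjusted p = 0.0861), -0.35 for Nfix (adjusted p = 0.272), -0.26 for Tnfrsf1b (adjusted p = 0.235), -0.26 for Ell2 (adjusted p = 0.318) and -0.24 for Numb (adjusted p = 0.280). Without WT 2 and WT 3 the values lay between -0.73 (Bcl6) and -0.19 (Numb). None of the 5 passed the threshold over all genes in either fit. The genotypes did not overlap for any but Ell2, against 4.12% of genes tested that were lower without overlap. Genes picked for a pattern like that of Ccnd2 share its split by genotype, so their lower values and lack of overlap are built in and nothing is read from them.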

How the data were processed

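RNA of 8 untreated BMDM cultures was extracted with TRIzol, made into TruSeq libraries and sequenced by a company. The authors deposited 1 table of read counts per gene, not normalized. The submitters' processing notes name the build mm10; the aligner, the counter and its strand setting, and the annotation are not given in the sources used here. All 8 columns were matched to samples by label.

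Counts were scaled by TMM, filtered with filterByExpr and compared by the quasi-likelihood test of edgeR 4.0.16 (R 4.3.3), with a two-sided p and genotype alone in the model, and Benjamini-Hochberg adjustment over all 12911 genes tested. A prior count of 2 was used for log2 CPM. Single genes were also compared by an exact permutation test. Positions and exon lengths came from GENCODE M21, which held 54495 of the 54532 genes. The fits were tested on simulated data. The closest libraries, Gsdmd-/- 1 and 2, differed by 4.20% of their joint counts, and none was counted as a duplicate.

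Named were every member, Gsdmd, from each pathway list the genes called or otherwise the 3 with the lowest p, and the 5 genes most like the member with the lowest p. The members and lists were chosen with earlier results of these data known. Alternatives were limma voom 3.58.1, DESeq2 1.42.0, normalization by upper quartile or RLE, keeping all genes, keeping those that had 10 or more counts in each library, a block for the replicate number, and leaving out each library, or WT 2 and WT 3. Ccne2, Cdkn1c and the 8 genes of mitosis and replication called without WT 2 and WT 3 were named after their values were seen, as were the genes that overlap members.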

Additional observations from a re-analysis of the deposited data

Results flagged for a closer look

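The summed level of erythroid markers was 0.366 CPM in WT 3 and between 0 and 0.0611 CPM in the other WT libraries, so WT 3 lay far from the rest of its group by Dixon's test. It was the only such value among 74 groups of 4 libraries examined, of which chance picks out about 1 in 20, and it is near the level that a count of 0 allows. WT 2, which stood apart together with WT 3, had 0.0611 CPM.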

How the results depend on the processing

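Precision was limited by 4 libraries per genotype and, for Cdkn2a and Cdkn2b, by low counts. Members with an adjusted p under 0.05 numbered 0 in the main test, 1 in DESeq2, 1 without the filter and 0 to 1 when single libraries were left out. Members called by p and fold change numbered 1, but 4 without the filter (Ccnd1, Ccnd2, Cdkn2a and Cdkn2b, all lower, against 3.09% of genes), 2 without WT 2 and WT 3 and 1 to 2 without single libraries (lower genes 2.27% to 5.37%), where the added member was Ccnd1 without WT 4 and otherwise Cdkn2b, which passed the filter through WT. Members whose genotypes did not overlap numbered 2, and 4 when scaled by library totals. Without WT 2 and WT 3 the log2 fold changes of Ccnd1 (0.30), Ccnd3 (-0.18), Cdk6 (-0.017) and Cdkn1a (-0.11) turned. Leaving out single libraries gave -0.032 to 0.16 for Ccnd3, turning without WT 2 or WT 3, and -0.00075 to 0.29 for Cdk6, turning without Gsdmd-/- 2. Called genes of the G1/S machinery numbered 0, but 1 with the replicate block (against 1.63% of genes) and 2 without WT 2 and WT 3 (3.05%). They numbered 0 to 1 without single libraries (1.18% to 2.42%), and all these calls were higher in Gsdmd-/-. Called genes of replication and mitosis numbered 0, but 1 without the filter (Mki67, lower, against 3.09%) and 8 without WT 2 and WT 3 (all higher, 3.05%). Without single libraries 0 to 2 were called (1.18% to 2.42% of genes higher, 2.27% to 5.37% lower). These were Mki67 or Aurka, lower, without WT 1, WT 4 or Gsdmd-/- 3, and Bub1, higher, without WT 3. Of the p53 targets, 2 in DESeq2 and 1 without WT 2 and WT 3 had an adjusted p under 0.05. By p and fold change 2 were called (10.5%, against 1.54% higher and 3.28% lower over all genes). It was 1 with upper-quartile normalization (Btg2, higher, against 1.64%) and 1 without WT 2 and WT 3 (Btg2, higher, against 3.05%). Without single libraries 0 to 2 were called (1.18% to 2.42% of all genes higher, 2.27% to 5.37% lower).

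Over all genes, an adjusted p under 0.05 was found for 18 higher and 27 lower genes, and for 105 and 187 in DESeq2, 44 and 65 without the filter, and 53 and 108 without WT 2 and WT 3. Single libraries left out gave 8 to 28 and 5 to 56. By p and fold change, 199 higher and 424 lower genes became 421 and 783 without the filter, 405 higher without WT 2 and WT 3, and 155 to 318 and 297 to 704 without single libraries. The cause of these changes was not tested. Same-numbered libraries showed no common deviation, with correlations from -0.201 to 0.182 against -0.253 to 0.333 for the other pairs. With 4 libraries per genotype this cannot decide whether the replicate number marks a pairing. With the replicate block, 9 higher and 16 lower genes had an adjusted p under 0.05, and Ccnd2 had a log2 fold change of -0.86 (edgeR adjusted p = 0.0835).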
